A study of Mus musculus with 6 samples.

Results

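Tiam1, the gene for an exchange factor that activates the small GTPase Rac, lies on the minus strand of mouse chromosome 16 and was described here through the open chromatin around it. Its peaks were all those of the merged ATAC-seq peak table to which the authors' annotation gave the gene name Tiam1 within 200000 bp of its start site. These were 62 of 175929 peaks. No Tiam1 peak was dropped by the limit, since the farthest lay 123364 bp from the start site. The locus was chosen from its tags in the groups compared here, which had been seen to differ, so every difference at the 62 peaks is a description. Counts of them past a threshold are set beside the share of all peaks and support nothing, and a p-value is printed only for peaks that carried other gene names.

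ATAC-seq reads out chromatin that a transposase can reach, and was done on 6 libraries of mouse leukemia cells driven by AML1/ETO 9a (AE9a), a truncated fusion oncoprotein. Both groups carried AE9a, 1 floxed and 1 intact copy of Usp18 (Usp18 +/f), the gene of a negative regulator of type I interferon signaling, and UBCER-Cre, a Cre recombinase that runs from a ubiquitous promoter and acts once tamoxifen is given. Recipient mice bearing the leukemia were injected with oil (replicates 1, 2 and 4, Usp18 +/f) or with tamoxifen (replicates 1, 3 and 4, which removes the floxed copy), and Lin- c-Kit+ splenocytes were sorted on day 3 after the first injection. There was no tamoxifen group without Cre, and the drug, Cre activity and loss of the Usp18 copy cannot be told apart. The study's methods for the sorted cells give a number of mice per group equal to that of the libraries here, whereas its replication statement gives fewer replicates for ATAC-seq, and no label ties a library to a mouse, so each SD and n is over libraries.

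Rac GTPases switch between an inactive GDP-bound and an active GTP-bound state, and exchange factors such as Tiam1 load them with GTP. Active Rac drives actin remodeling, adhesion, migration and the NADPH oxidase, and in blood cells it is needed for homing and retention of stem and progenitor cells. Tiam1 was first identified through the invasion of T lymphoma cells, and it also scaffolds Rac effectors and polarity proteins.

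The libraries held 57.4 to 74.7 M tags (1 M is 1000000), of which 17.5 to 21.1 M lay in peaks, and the median peak of a library held 45 to 57 tags. A single mate of a pair contributes 0.5 tags, and levels below are tags divided by the DESeq2 size factor. Oil libraries differed from one another by less (chi-square over its degrees of freedom 1.04 to 1.22 for the pairs) than tamoxifen libraries did (1.49 to 2.70). That statistic takes the tag count as the variance. With steps of 0.5 tags counting error can be smaller, so the values only rank the pairs. Among all peaks, tamoxifen replicate 4 was the lowest tamoxifen library at 37.9%. All 6 progenitor markers (Kit, Cd34, Gata2, Mpo, Myb and Runx1) had a promoter peak, with a summed level of 2118 to 2181 tags in oil and 2209 to 2545 in tamoxifen. The Kit peak had a mean of 757 tags in oil and 787 in tamoxifen. The Mpo peak was low, with 31.8 in oil and 41.6 in tamoxifen, and the Cd34 peak is described further below. Promoter peaks were also present for all 6 erythroid markers, with a summed level of 1271 to 1378 tags in oil and 1116 to 1270 in tamoxifen. Of the T cell markers 5 of 8 had a promoter peak (140.1 to 166.7 tags in tamoxifen, 139.5 to 169.7 in oil), while Cd3d, Cd4 and Cd8a had none. Of the B cell markers 3 of 6 had one (134.1 to 157.7 in oil, 151.0 to 190.9 in tamoxifen), while Cd79b, Ms4a1 and Pax5 had none. Of the mature myeloid markers 3 of 6 had one (132.6 to 141.2 in oil, 124.7 to 142.6 in tamoxifen), while Ly6g, Csf1r and S100a8 had none.

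The 62 peaks spread over 358 kb, chr16:89694866-90053186 of mm10. The reference annotation of that build gave Tiam1 several alternative start sites. Transcripts begin at 89818352 (the internal start), 89960827 (the middle start, from which distances below are counted), 89974699 (the distal start) and, as predicted RefSeq and GENCODE models, between 90143393 and 90145600 (the far upstream starts), and the gene ends at 89787111. The authors' annotation put 34 peaks in introns, 1 in an exon, 1 at a promoter and 26 in intergenic DNA. Measured against the longest annotated transcript instead, 55 of the 62 lay inside the gene, including 19 of the 26 intergenic ones. Only 3 peaks lay within 3000 bp of a start site named by the table and 59 were farther away. The peaks were 202 to 623 bp wide with a median of 244 bp, and 28 lay less than 1000 bp from the peak before them, so neighboring peaks can share fragments.

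Sequences are shown for 5 of the peaks with higher tags after tamoxifen and for 1 of the highest peaks whose groups overlapped, so that the DNA behind the values can be read. Each is the plus strand of mm10, and capitals mark matches to 4 motifs on either strand. For RUNX the letters searched were TGTGGT, with TGCGGT also accepted. For ETS they were AGGAAG, with CGGAAG also accepted, for GATA they were AGATAA, with TGATAA also accepted, and for AP-1 they were TGANTCA. These are families of factors that act in blood progenitors, RUNX being the family that gives AE9a its DNA-binding domain.
Intron 1 peak, chr16:89973159-89973436: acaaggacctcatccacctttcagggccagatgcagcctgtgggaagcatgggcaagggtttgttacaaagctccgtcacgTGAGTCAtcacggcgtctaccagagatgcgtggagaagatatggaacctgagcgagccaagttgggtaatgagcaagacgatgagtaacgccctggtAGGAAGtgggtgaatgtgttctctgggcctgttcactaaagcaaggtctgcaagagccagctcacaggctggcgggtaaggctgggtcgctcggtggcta
Upstream peak, chr16:89986242-89986523: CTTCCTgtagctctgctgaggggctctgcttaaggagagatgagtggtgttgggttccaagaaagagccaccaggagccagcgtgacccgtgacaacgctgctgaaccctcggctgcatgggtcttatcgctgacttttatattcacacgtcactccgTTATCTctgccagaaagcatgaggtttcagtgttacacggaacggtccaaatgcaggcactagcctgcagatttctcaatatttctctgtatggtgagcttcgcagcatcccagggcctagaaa
Far intronic peak 87.2 kb upstream, chr16:90047891-90048174: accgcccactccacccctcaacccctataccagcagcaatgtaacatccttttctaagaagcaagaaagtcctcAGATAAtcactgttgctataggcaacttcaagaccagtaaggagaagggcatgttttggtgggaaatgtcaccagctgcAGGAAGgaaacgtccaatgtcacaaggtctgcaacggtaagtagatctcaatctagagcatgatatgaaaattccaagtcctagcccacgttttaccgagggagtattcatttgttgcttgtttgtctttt
Intron 6 peak, chr16:89871318-89871613: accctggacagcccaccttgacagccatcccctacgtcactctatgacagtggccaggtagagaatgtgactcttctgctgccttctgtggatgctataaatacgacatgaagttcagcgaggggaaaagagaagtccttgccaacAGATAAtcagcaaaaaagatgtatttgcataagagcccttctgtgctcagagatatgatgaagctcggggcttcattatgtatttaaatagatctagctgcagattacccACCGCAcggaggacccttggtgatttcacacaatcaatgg
Intron 12 peak, chr16:89848638-89848891: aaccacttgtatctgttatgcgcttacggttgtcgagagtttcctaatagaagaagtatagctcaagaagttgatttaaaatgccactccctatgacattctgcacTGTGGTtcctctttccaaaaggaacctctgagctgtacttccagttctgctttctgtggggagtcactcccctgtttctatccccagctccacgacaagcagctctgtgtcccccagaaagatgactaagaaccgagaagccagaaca
Peak past the 3′ end, chr16:89774378-89774649: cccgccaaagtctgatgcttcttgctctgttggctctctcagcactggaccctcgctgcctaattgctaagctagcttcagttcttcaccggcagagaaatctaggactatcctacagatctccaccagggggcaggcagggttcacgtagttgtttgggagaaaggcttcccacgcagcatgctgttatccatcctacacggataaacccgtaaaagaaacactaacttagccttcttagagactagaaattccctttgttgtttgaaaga
The intron 1 peak held an AP-1 and an ETS match, the intron 6 peak a GATA and a RUNX match, and the intron 12 peak a RUNX match. The upstream peak and the peak 87.2 kb upstream each held a GATA and an ETS match. The peak past the 3′ end held none of the 4 motifs. Other peaks that changed less also held ETS letters. There were 3 matches at chr16:90044094-90044339 (log2 change of tamoxifen against oil 0.18) and 1 at the middle start (0.42, groups overlapping). The peak across the far upstream start, chr16:90143760-90143977, held 1 (0.05). Whether matches go with the changes was not tested.

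Each motif was then counted in the central 200 bp of all 62 peaks, both strands, beside 175738 peaks of the whole table. GATA letters were found in 26 Tiam1 peaks (41.9%, against 23% of all peaks), ETS in 28 (45.2%, against 34.9%), RUNX in 19 (30.6%, against 21.5%) and AP-1 in 7 (11.3%, against 6.61%). Of the 8 peaks with the smallest DESeq2 p-values, described below, 4 held GATA, 3 ETS, 2 RUNX and 2 AP-1 letters, against 22, 25, 17 and 5 of the other 54. That split uses the contrast by which the locus was chosen, and nothing is read from it. Shares closer to those of all peaks were seen for MYB (TAACNG; 21% against 19%), STAT (TTCNNNGAA; 4.84% against 4.86%), IRF (GAAANNGAA; 4.84% against 5.13%), the glucocorticoid receptor (ACANNNTGT; 6.45% against 6.01%) and NF-kB (its consensus; 3.23% against 5.03%). The E-box CACGTG was in 1 peak (1.61% against 4.59%), the intron 1 peak, where it overlaps the AP-1 match, and the C/EBP (TTGCNNCAA) and estrogen receptor (GGTCANNNTGACC) letters were in none (0), against 1.44% and 0.0114% of all peaks. The motifs can overlap one another, and a match is only a string of letters. The GC content of these windows had a median of 49.8% (39.5% to 62%), against 50.5% for all peaks.

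Before any comparison, the Tiam1 peaks were of ordinary height. Their mean oil levels ran from 11.5 to 347.0 tags with a median of 49.7, against 50 for all peaks. In the authors' peak lists, 46 (74.2%) were found in both groups, 6 (9.68%) in oil alone and 10 (16.1%) in tamoxifen alone, against 71.4%, 17.4% and 11.2% of all peaks.

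More of the locus was higher than lower after tamoxifen. The log2 change of tamoxifen against oil was above 0 at 50 peaks (80.6%, where 49.7% of all peaks were) and below 0 at 12. Its median was 0.291, against -0.001 for all peaks, and it ran from -0.49 to 0.995. All 3 tamoxifen libraries lay above all 3 oil libraries at 21 peaks (33.9%; 11.9% of all peaks), all 3 lay below at 3 peaks (10.0% of all peaks), and the groups overlapped at 38. A log2 change over 0.8, a limit set after the values were seen, was reached by 11 peaks (17.7%, against 2.5% of all peaks). Because these shares restate the contrast by which the locus was picked, nothing is read from them.

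No Tiam1 peak (0 of 62) was called at a fold over 2 and an adjusted p under 0.05 in the DESeq2 fit across all peaks, where 0.654% of all peaks were, and edgeR also called 0. The largest member change fell just under the fold limit. Without the fold limit, 8 members had a DESeq2 adjusted p under 0.05, all higher (1.22% of all peaks were higher by that rule), and edgeR gave 12 that included all 8 (2.4% of all peaks were higher by edgeR). At an unadjusted DESeq2 p under 0.05 there were 18 higher and 0 lower, against 6.18% and 2.84% of all peaks. The choice of the locus from this contrast partly fixed these counts, and nothing is read from them. These counts moved with single libraries. Without tamoxifen replicate 4, 7 members were called, where the calls over all peaks went up to 1.54%, and the groups were apart at 40 members (64.5%, against 43.7% of all peaks in the same libraries). Without oil replicate 4, 2 were called (0.376% of all peaks), and without tamoxifen replicate 1, 1 was (0.362%). The 8 became 3 without oil replicate 1 (0.483% of all peaks higher by that rule), oil replicate 2 (0.439%) or tamoxifen replicate 3 (0.313%). They became 4 without tamoxifen replicate 1 (0.53%) and 5 without oil replicate 4 (0.527%).

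**Figure D1:**
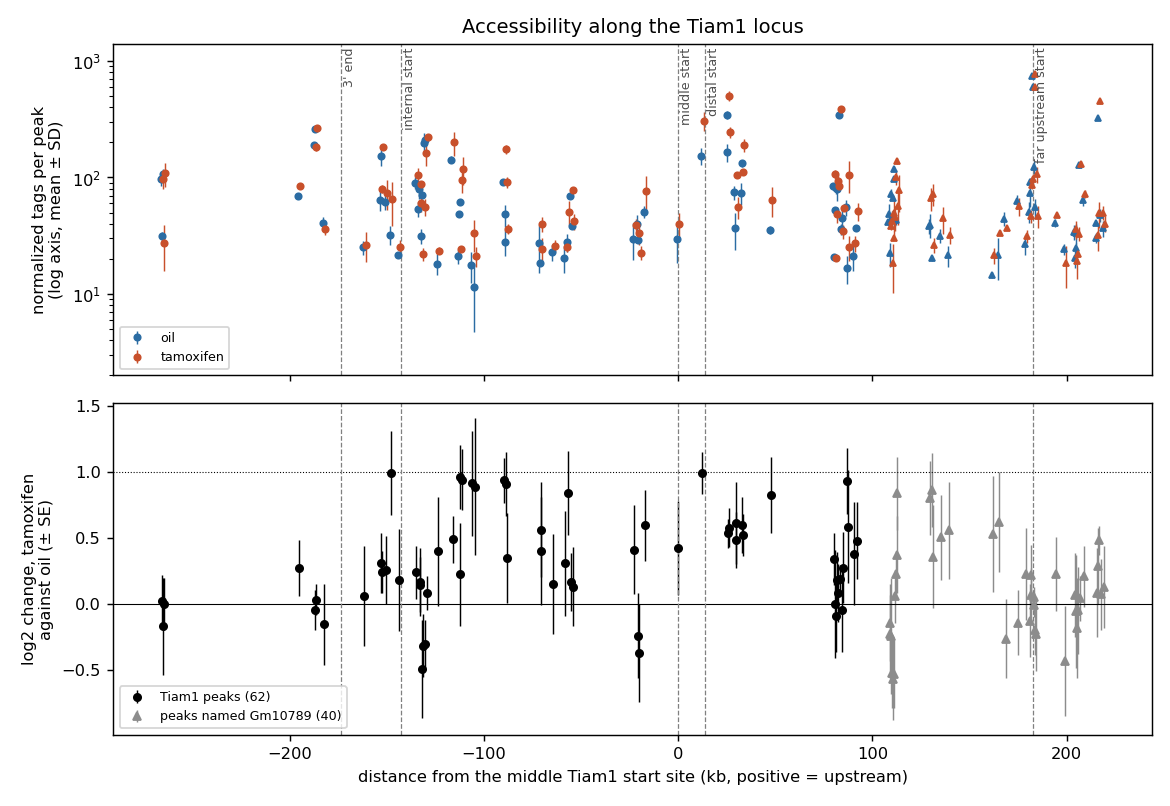
Normalized tags per peak (upper panel, log axis, mean ± SD of 3 libraries) and log2 change with its SE (lower panel) against distance from the middle start site in kb, for the 62 Tiam1 peaks (circles) and the 40 peaks named Gm10789 (triangles). The dashed lines mark the annotated start sites and the 3′ end of Tiam1, and the dotted line marks a log2 change of 1. The tallest peaks, at the far upstream start, lie on 0, while the peak beside the distal start reaches 0.995.

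The largest change was at the intron 1 peak, 12.5 kb upstream of the middle start and within the first intron of the transcripts from the distal start. It held 143, 135 and 183 tags in oil and 328, 351.0 and 244 in tamoxifen. The lowest tamoxifen library, replicate 4, stood above the highest oil library, replicate 4, and the groups did not overlap. The log2 change was 0.995 ± 0.16 (SE, n = 3 per group), from 153.7 ± 25.9 (SD) to 307.7 ± 56.0 tags, and it ran from 0.891 to 1.14 when 1 library at a time was left out.

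Inside the gene body, further changes lay in introns 6 and 12 of the transcript from the middle start. The intron 6 peak went from 93.2, 88.2 and 95.4 tags in oil to 181, 189 and 159 in tamoxifen, a log2 change of 0.94 ± 0.17. The groups lay far apart there, with the oil libraries close together. Past a gap of 448 bp, a peak at chr16:89872062-89872381 held 43.6, 41.0 and 60.0 tags in oil and 80.7, 98.0 and 94.5 in tamoxifen (log2 change 0.91 ± 0.24). It was the only one of the 8 at which tamoxifen replicate 4 was not the lowest of its group.

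Intron 12 held a further pair. The first went from 50.2, 48.3 and 47.0 tags in oil to 92.8, 118 and 74.0 in tamoxifen (log2 change 0.96 ± 0.24). The other, at chr16:89849138-89849526, went from 64.0, 60.5 and 58.7 to 102, 154 and 98.7 (0.94 ± 0.23). At both, tamoxifen replicate 3 was highest and the groups were apart. Farther along the gene, at -147.8 kb, exon 17 of 28 of the transcript from the distal start carried a weaker peak, chr16:89812875-89813251. This peak held 25.9, 32.7 and 37.6 tags in oil and 64.8, 91.4 and 38.6 in tamoxifen. Its log2 change was as large (0.99 ± 0.32), but tamoxifen replicate 4 lay just above oil replicate 4, and the peak was not among the 8.

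Upstream of the distal start, 19 peaks lay in DNA that the table calls intergenic and that the longest annotated transcripts span as their first intron. The highest of all members, the upstream peak 25.6 kb from the middle start, held 327, 337 and 377 tags in oil and 518, 545 and 450.2 in tamoxifen (log2 change 0.54 ± 0.11). Its neighbor at chr16:89986658-89986957 held 141, 155 and 197 in oil and 244, 274 and 221 in tamoxifen (0.58 ± 0.15). Both had groups that did not overlap and smaller ratios than the intron 1 peak.

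Farther out, the peak 87.2 kb upstream held 54.1, 47.3 and 64.5 tags in oil and 97.1, 142 and 78.7 in tamoxifen (log2 change 0.93 ± 0.25). At 83.4 kb, the second highest member, chr16:90044094-90044339, held 329.8, 363 and 335 in oil and 404.5, 393 and 372 in tamoxifen (0.18 ± 0.11). The groups were apart at both, but the changes differed widely in size within this stretch.

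Other members differed little between the groups. The third highest, the peak past the 3′ end, held 247, 259 and 270.1 tags in oil and 262, 276 and 257 in tamoxifen (log2 change 0.03 ± 0.12), so that its groups overlapped. The peak at the middle start itself, chr16:89960714-89960937, was low, with 40.8, 18.0 and 30.9 tags in oil and 46.4, 44.6 and 28.4 in tamoxifen (0.42 ± 0.36). Its groups overlapped too, and its change ran from 0.155 to 0.714 with 1 library left out. The 3 members with all tamoxifen libraries below all oil libraries were low to moderate intronic peaks.

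Among these 3, chosen after their values were seen, the peak at chr16:89828656-89829278 went from 27.0, 31.2 and 36.3 tags in oil to 21.7, 19.5 and 25.1 in tamoxifen (log2 change -0.49 ± 0.37). Its neighbor at chr16:89829572-89829934 went from 67.8, 67.3 and 75.7 to 46.4, 57.4 and 64.7 (-0.32 ± 0.24). Both lie in intron 15 of the transcript from the middle start. The third, at chr16:89940763-89941047 in intron 2, went from 30.3, 30.7 and 26.9 to 24.6, 18.9 and 24.2 (-0.37 ± 0.37). At each of the 3 the highest tamoxifen library lay close under the lowest oil library.

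**Figure D2:**
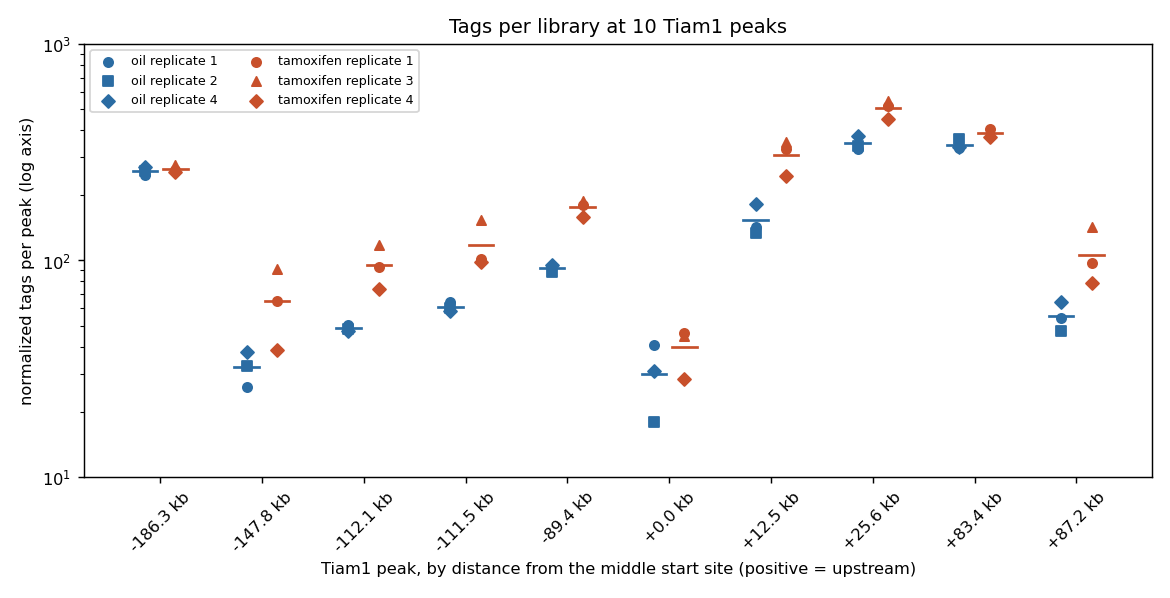
Normalized tags in each library (log axis) at 10 Tiam1 peaks, ordered by distance in kb from the middle start site. Blue points are oil libraries, orange points tamoxifen libraries and short bars group means. At +12.5 kb the oil libraries span 135 to 183 tags and the tamoxifen libraries 244 to 351.0, whereas at -186.3 kb the groups overlap.

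Tamoxifen replicate 4 was the lowest tamoxifen library at 7 of the 8 members with an adjusted p under 0.05 and at 31 of all 62. Summed over all members, the oil libraries held 4583, 4363 and 5055 tags (4667 ± 353, SD, n = 3) and the tamoxifen libraries 5909, 6252 and 5568 (5910 ± 342). The 2 groups did not overlap, and the ratio of the means was 1.27 (log2 0.34). Within oil the highest library exceeded the lowest by 14.8% of the mean, and with 1 library left out the log2 ratio ran from 0.29 to 0.40.

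The locus was next cut into stretches at its annotated start sites, a division made after the values had been seen. The 7 peaks past the 3′ end summed to 794.3 ± 29.0 tags in oil and 801.4 ± 26.1 in tamoxifen, a log2 ratio of 0.01. From the 3′ end to the internal start, 6 peaks gave a log2 ratio of 0.34, and from there to the middle start, 29 peaks gave 0.32 (1628 ± 142 to 2034 ± 152 tags). The groups overlapped in the first of these (325 to 397 tags in oil, 382 to 495 in tamoxifen) and were apart in the next, and past the 3′ end they overlapped. Between the middle and distal starts lay the intron 1 peak alone. Upstream of the distal start, the 19 peaks summed to 1734 ± 131 tags in oil and 2315 ± 119 in tamoxifen. The log2 ratio was 0.42 (0.38 to 0.48 with 1 library left out). All tamoxifen libraries lay above all oil libraries at 11 of the 19 and below at 0, where 11.9% and 10.0% of all peaks did. The choice of the locus partly fixed that count.

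Past the last Tiam1 peak the table changes to the name Gm10789, a noncoding gene on the plus strand that overlaps the far upstream starts of Tiam1. Of its 40 peaks, 27 lie within the longest Tiam1 transcript although none was a member, and they were therefore open to testing. The highest of these, chr16:90143760-90143977, sits across the far upstream GENCODE start at 90143769. It held 787, 734 and 721 tags in oil and 763, 811 and 744 in tamoxifen, more than any Tiam1 member, in a peak 218 bp wide. The groups overlapped, with a log2 change of 0.05 ± 0.08 (95% interval -0.11 to 0.21) and a DESeq2 adjusted p of 0.97. The peak beside it, chr16:90144140-90144367, held 624, 572 and 599 tags in oil and 565, 595 and 624 in tamoxifen, a log2 change of -0.01 ± 0.09 (-0.18 to 0.17). Intervals of that width leave out changes in counted tags of the size seen at the intron 1 peak. These peaks are high for their width and no position contributes over 3 tags, so the counts may understate a change in accessibility.

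The 6 peaks from the Gm10789 start to the farthest Tiam1 start summed to 1689 ± 66.5 tags in oil and 1703 ± 35.0 in tamoxifen, a log2 ratio of 0.01 (-0.02 to 0.04 with 1 library left out). The 21 peaks between the last member and the Gm10789 start gave 0.14, and the 13 beyond the farthest start gave 0.24. Within the 21 the changes differed widely, 12 being above 0. All tamoxifen libraries lay above all oil libraries at 9 (11.9% of all peaks) and below at 2 (10.0%). The peaks 112.9, 129.7 and 130.5 kb upstream had log2 changes of 0.84, 0.80 and 0.86 (DESeq2 adjusted p 0.132, 0.156 and 0.0978). Others were lower, down to -0.57. A single Gm10789 peak had a DESeq2 adjusted p under 0.05, though its fold of 1.4 lay under the fold limit and it was not called. This peak, chr16:90177488-90177830, lies beyond every annotated Tiam1 start and held 333, 319 and 311 tags in oil and 447, 475 and 427 in tamoxifen, with a log2 change of 0.48 ± 0.11 and a DESeq2 adjusted p of 0.00124. Its adjusted p was 0.0683 without oil replicate 4 and 0.0546 without tamoxifen replicate 3.

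**Figure D3:**
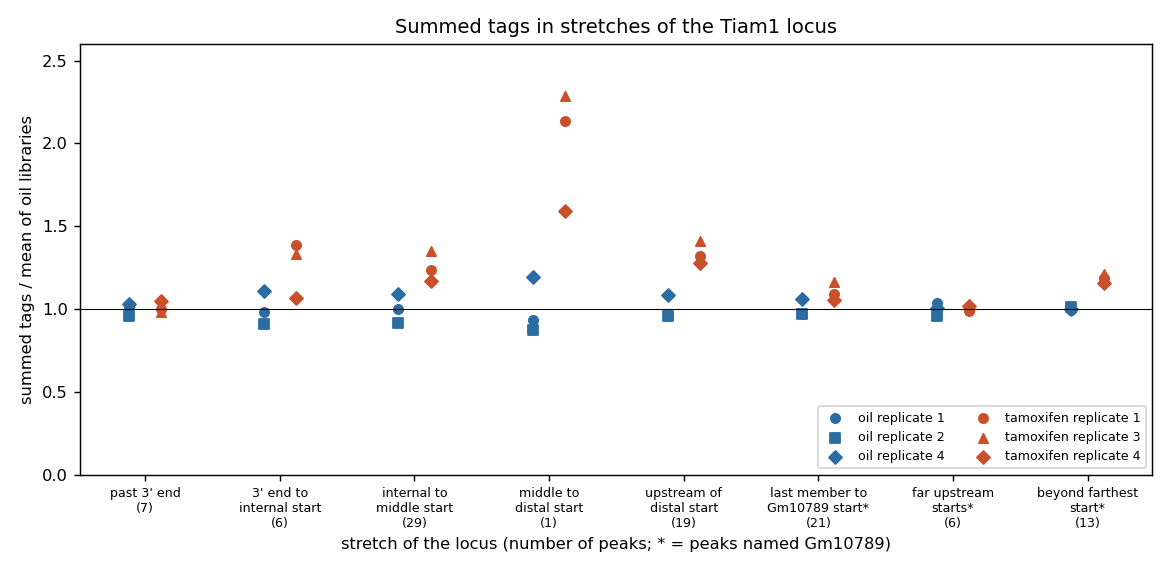
Summed normalized tags of each library in 8 stretches of the locus, divided by the mean of the 3 oil libraries, with the number of peaks in each stretch under its name. Blue points are oil and orange points tamoxifen libraries, and asterisks mark stretches whose peaks are named Gm10789. The groups overlap past the 3′ end (log2 ratio 0.01) and at the far upstream starts (0.01) and are apart upstream of the distal start (0.42).

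To see whether the surroundings moved alike, all other peaks within 1000000 bp of the middle start were read from the same fit. These 183 peaks carried 11 other gene names. None (0) was called by DESeq2 or by edgeR, where 0.654% and 1.03% of all peaks were. A DESeq2 adjusted p under 0.05 was reached by 1, the Gm10789 peak above (0.546%, against 1.39% of all peaks). By edgeR 4 reached it (2.92% of all peaks did). Before adjustment, 6 (3.28%) were higher and 5 (2.73%) lower at a DESeq2 p under 0.05, against 6.18% and 2.84% of all peaks. The 183 had a median log2 change of -0.033, with 83 above 0 and 100 below. Without tamoxifen replicate 4, 3 of the 183 were called, where 1.54% of all peaks were.

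On the 3′ side the nearest named genes were Krtap11-1 and Krtap7-1, which encode hair keratin-associated proteins. Their 6 and 2 peaks had median log2 changes of -0.12 and -0.00. On the other side, beyond Gm10789 (40 peaks, median 0.07), the 42 peaks of Sod1, the cytosolic superoxide dismutase, had a median of -0.18. None (0) of these 42 had an adjusted p under 0.05, where 1.39% of all peaks did. Their smallest DESeq2 adjusted p was 0.408. Whether the Tiam1 peaks differ as a group from these neighbors was not tested.

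**Figure D4:**
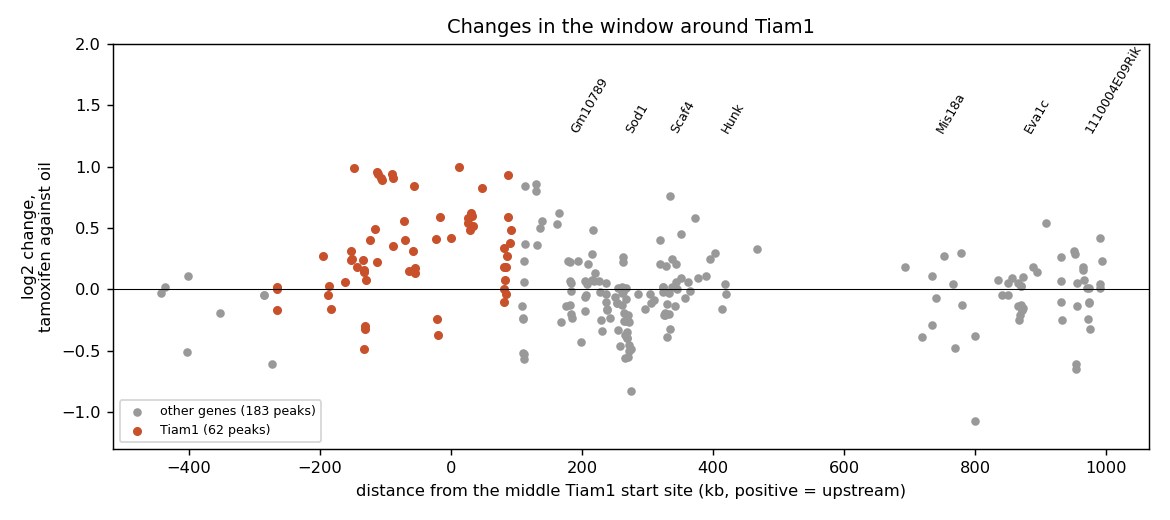
Log2 change of tamoxifen against oil for every peak within 1000000 bp of the middle Tiam1 start site (x axis, distance in kb) and for the Tiam1 peaks (orange). Gray points are the 183 peaks of 11 other genes, whose median is -0.033, and the orange points have a median of 0.291.

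Other genes of Rac signaling were taken from a list of 73 exchange factors, small GTPases, effectors, inactivators and Tiam1 partners, of which 71 had peaks within 200000 bp of their start sites. Of their 1092 peaks 14 were called higher and 0 lower (1.28%, where 0.654% of all peaks were called), and the median log2 change was 0.04. Without the fold limit 19 were higher and 1 lower at a DESeq2 adjusted p under 0.05. All 14 lay more than 3000 bp from a start site, all had groups that did not overlap, and tamoxifen replicate 4 was the lowest tamoxifen library at 12 of them. The count moved with single libraries, and so did the calls over all peaks. It was 1 without tamoxifen replicate 3 (0.21% of all peaks called) and 19 without tamoxifen replicate 4 (1.54%). Without oil replicate 2 (0.311%) or oil replicate 4 (0.376%) it was 5. Without oil replicate 1 (0.346%) or tamoxifen replicate 1 (0.362%) it was 6. EdgeR called 13, of which 11 were among the 14.

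Among the exchange factors, Prex1, which links chemokine receptors to Rac, had a peak at chr2:166656694-166657107 that rose from 157, 149.7 and 173 tags in oil to 327, 355 and 287 in tamoxifen (log2 change 1.01 ± 0.14, DESeq2 adjusted p 6.34e-10). It fell under the fold limit without oil replicate 1 (log2 change 0.996), oil replicate 2 (0.965) or tamoxifen replicate 3 (0.937). Trio, an exchange factor with more than a single exchange domain, had a pair of neighboring called peaks (log2 change 1.39 and 1.05, DESeq2 adjusted p 0.00547 and 0.0243), and Dock4 had 1 (1.31, adjusted p 0.034). By list, 4 of 357 exchange factor peaks were called.

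The GTPase list had 1 called peak of 118, and it was the most stable of the 14. At Rac2, the blood-specific Rac, a peak at chr15:78576235-78576636 rose from 51.8, 43.9 and 44.3 tags in oil to 128, 115 and 151 in tamoxifen (log2 change 1.50 ± 0.22, DESeq2 adjusted p 1.92e-08). It was the only 1 of the 14 called by edgeR and with each library left out in turn. The Rac2 promoter peak did not pass the test (303 tags in oil, 338 in tamoxifen, log2 change 0.16 ± 0.13, interval -0.09 to 0.41).

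Genes that switch Rac off or hold it inactive had 5 called peaks of 204. Of these 3 belonged to Chn2, a Rac GTPase-activating protein, the strongest at chr6:54162878-54163127 with 91.6, 93.1 and 88.7 tags in oil and 196, 293 and 157 in tamoxifen (log2 change 1.23 ± 0.20, DESeq2 adjusted p 1.56e-06). The others were at Abr (1.08, adjusted p 0.00228, and 1.38, adjusted p 0.0461). Without tamoxifen replicate 3 the log2 change of the strongest Chn2 peak was 0.945 and that of the first Abr peak 0.81, both under the fold limit. The DESeq2 adjusted p of that Abr peak was then 0.282. It was 0.0733 without oil replicate 1 and 0.0767 without oil replicate 2.

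Among effectors, 2 of 217 peaks were called, 1 at Iqgap1, a scaffold that binds active Rac and Cdc42 (log2 change 1.93 ± 0.36, DESeq2 adjusted p 4.73e-05), and 1 at Abi1, part of the WAVE complex (1.30, adjusted p 0.0337). Among Tiam1 partners, 2 of 196 were called, at Cd44, the hyaluronan receptor (1.32 ± 0.27, DESeq2 adjusted p 0.000236), and Pard3, a polarity protein that binds Tiam1 (1.22 ± 0.29, adjusted p 0.00386). The Iqgap1 and Pard3 peaks, and the first Trio peak, were not called by edgeR. Beside Prex1 and Rac2, whose oil and tamoxifen libraries lay far apart, the Iqgap1 peak spanned 48.9 to 134 tags in tamoxifen, over 16.1 to 25.9 in oil.

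Promoter peaks were read for 6 of these genes, Rac2 above and a further 5, and none of the 6 passed the test. The promoter peak of Rac1 held 619 tags in oil and 586.5 in tamoxifen (log2 change -0.08 ± 0.09, interval -0.26 to 0.10), that of Vav1 389 and 388 (-0.003 ± 0.10), that of Dock2 324 and 342 (0.08 ± 0.11) and that of Pard3 38.4 and 36.0 (-0.07 ± 0.31). Tiam2, the closest relative of Tiam1, had a weak promoter peak of 15.5 ± 5.86 tags in oil and 25.2 ± 2.00 in tamoxifen (0.71 ± 0.43, DESeq2 adjusted p 0.706). The middle-start peak of Tiam1, at 29.9 and 39.8 tags, was of a height between those of Tiam2 and Pard3 in oil and far below those of Rac1 and Vav1, with widths of 202 to 273 bp for all of them.

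Of the progenitor markers, the Cd34 promoter peak moved with the groups. It held 73.9, 92.6 and 117 tags in oil and 265, 333 and 212 in tamoxifen (log2 change 1.50 ± 0.19, DESeq2 adjusted p 8.32e-12), with tamoxifen replicate 3 highest and replicate 4 lowest, the order also seen at the intron 1 peak of Tiam1. In a bulk library a change in the mix of cells and a change within cells cannot be told apart, and the part of either in the Tiam1 values was not tested. None of the other 22 markers with a promoter peak passed the test.

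Genes whose profile was most like that of Tiam1 were found among 6073 genes with at least 10 peaks, by the Euclidean distance between mean log2 profiles over the 6 libraries, each peak centered on its own mean. They were Ltbp1 (distance 0.042, 21 peaks), Rptoros (0.084, 11 peaks), Mir5127 (0.111, 11 peaks), Kctd6 (0.112, 10 peaks) and Rab44 (0.113, 34 peaks), where the median distance over all genes was 0.518. The Tiam1 profile itself stood at -0.177, -0.281 and -0.027 in oil and 0.164, 0.23 and 0.091 in tamoxifen. Among 768 genes with at least 30 peaks Tiam1 ranked 32 by its median log2 change. Counting Tiam1, 9 of these genes had as many peaks with an adjusted p under 0.05 or more, and 4 of the 9, Dnajb1, Jun, Neat1 and Tiam1, had no called peak among them. The choice of Tiam1 from this contrast partly fixed its rank and its place in that count, and nothing is read from either.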

How the data were processed

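Open chromatin was measured by ATAC-seq in 6 libraries, 3 per group. The authors aligned the reads with Bowtie2 (mm10), used HOMER to call the peaks of each group, merged the lists and gave each peak a gene name and a distance; tool versions are not given in the sources used here. The deposited table holds raw tags per merged peak, an estimated count in steps of 0.5. It is not normalized, and no position contributes over 3 tags. It also holds a deposited score per peak, which was not analyzed. Tags were rounded to whole numbers and all 175929 peaks were fitted together with DESeq2 (version 1.42.0, R 4.3.3, median-of-ratios size factors, group as the only term, Wald test, Benjamini-Hochberg adjustment over all peaks). A peak was called at a fold over 2 and an adjusted p under 0.05, as in the study's methods. Intervals of log2 changes are 95% Wald intervals. EdgeR (4.0.16) quasi-likelihood fits, other size factors, a minimum of 10 tags, distal peaks alone and leaving out each library were the alternatives. In simulated counts for 175929 peaks, changes were put only into peaks with a mean of at least 30 tags. DESeq2 called 86% of those changed by a log2 of 1.5 and 98% of those changed by 2. Smaller changes, and changes at lower peaks, were not simulated.

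The Tiam1 peaks given in full were the 6 with the largest log2 change among those with a mean of at least 20 tags, the 3 highest in oil and the one nearest its start site. For neighboring genes the nearest 2 on each side were named, and for Rac genes up to 10 with a called peak, Tiam2, Rac1, Rac2, Vav1, Dock2 and Pard3. Other peaks named were chosen after their values were seen. The locus, the gene lists and the rules were chosen with earlier results of these data known. The peak lists were made from the same libraries that were compared, and the limit on tags per position caps the highest peaks. Marker genes were read at the peak nearest the start site within 3000 bp. Start sites and sequences came from the GRCm38 reference (the mm10 build), on whose 21 compared chromosomes no peak (0) ended beyond the sequence. Whether libraries numbered alike were paired was checked by the correlation of their deviations from the group means, which was -0.044 for number 1 and 0.0508 for number 4, and they were not treated as pairs.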

Additional observations from a re-analysis of the deposited data

How the results depend on the processing

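No result reversed under the alternatives run. The count of called Tiam1 peaks was 0 with size factors from tags in peaks or TMM, by edgeR, among distal peaks alone, with at least 10 tags and with a limit of 100000 bp. It was 1 with size factors from total mapped tags (the intron 1 peak), 8 with no fold limit and 0 to 7 with 1 library left out, the 7 without tamoxifen replicate 4. The 8 members with an adjusted p under 0.05 became 3 to 11 with 1 library left out, where 0.313% to 2.29% of all peaks were higher by that rule. Neighboring peaks called were 1 with no fold limit (1.39% of all peaks) and 0 to 3 with 1 library left out (0.21% to 1.54% of all peaks). Rac pathway peaks called ranged from 1 to 19 with 1 library left out, where 0.21% to 1.54% of all peaks were called. Tiam1 peaks whose groups do not overlap numbered 24 in all libraries (38.7%, against 21.9% of all peaks) and 27 to 40 with 1 library left out (43.5% to 64.5%, against 28.5% to 43.7% of all peaks), since fewer libraries overlap less often. The median log2 change was 0.198 to 0.369 and the log2 ratio of summed tags 0.294 to 0.402. Gm10789 peaks with an adjusted p under 0.05 numbered 0 to 4 with 1 library left out (0.358% to 3.71% of all peaks), and 3 by edgeR (2.92%). Over all peaks edgeR called 1815 where DESeq2 called 1150, and Rac pathway peaks at an adjusted p under 0.05 in either direction numbered 42 by edgeR and 20 by DESeq2.

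With a replicate block on the 4 libraries numbered 1 and 4, the median Tiam1 log2 change was 0.196, no Tiam1 peak (0) and no Rac pathway peak (0) was called, and 0 members had an adjusted p under 0.05, DESeq2 giving none for 15 of the 62. That fit calls 52 peaks of the whole table and uses fewer libraries.

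Depth limited the low members most, 18 having a mean oil level under 30 tags. Intervals cover the spread between 3 libraries, and where libraries share a mouse that spread is technical. Each left-out fit has 5 libraries and less power.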
